A study of Mus musculus with 24 samples.

Results

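The islands of the histone mark H3K4me1 in Utx knockout (KO) and wild-type (WT) progenitors are described here, from 2 libraries of each genotype among the 24 samples of the series. The cells were C57BL/6 mouse bone marrow depleted of lineage-positive cells (Lin- progenitors, also called HSPCs), taken from UTX WT mice (Utx+/+) or UTX_KO mice (Utx-/-). The labels do not say how the allele was made, in which cells it acts, or the age or sex of the animals. Nor do they say whether replicates came from separate animals, so p-values measure only the spread between these libraries. Members were taken by label and assay, as 4 lists of islands, which are stretches of the genome where a ChIP-seq library is enriched. The WT lists held 51394 and 54654 islands, carrying 6928701 and 14212793 reads over 201 and 284 Mb. The KO lists held 44089 and 43706 islands, carrying 7800940 and 8629872 reads over 180 and 226 Mb. WT replicate 2 thus had the largest read total, and both KO lists were shorter than both WT lists. Islands of the 4 lists that overlapped or touched merged into 58364 regions, of which 56962 lay on autosomes. Signal is given as reads in the islands per 1000000 island reads of the library (RPM), and only autosomes were tested.

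H3K4me1 is laid down mainly by the methyltransferases Kmt2c and Kmt2d, whose complexes contain Utx, the product of the X-linked gene Kdm6a and a demethylase of H3K27. The mark covers enhancers and the flanks of active promoters, and blood lineages differ in where they carry it. In progenitors, enhancers of erythroid genes are bound by GATA factors with Tal1 and Lmo2, and those of myeloid and B cell genes by the ETS factor PU.1, encoded by Spi1. At Kdm6a itself (chromosome X, 18160862 to 18279936, mm10) the 4 nearby regions carried 97.3 and 129 RPM in WT and 76.5 and 90.4 RPM in KO. Island reads do not show whether the gene was deleted, so these values check no label. Genes that mark Lin- progenitors carried islands in every library. Runx1, a regulator of blood stem cell formation, had 1541 and 1499 RPM in WT and 1497 and 1496 in KO, and Myb, a progenitor transcription factor, had 341 and 378 against 465 and 404. In Cd34, a surface marker of progenitors, the values were 152 and 164 against 172 and 142 RPM, and in Flt3, a receptor of lymphoid and myeloid progenitors, 136 and 135 against 104 and 147. None of these 4 genes passed, with adjusted p from 0.27 (Myb) to 0.98 (Cd34) by edgeR's quasi-likelihood test. Of the other markers of these cells, Meis1 and Kit are given below. In such bulk samples, fewer cells of a type and less of the mark per cell cannot be told apart.

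Some regions whose signal differed between the genotypes contain a promoter of a listed blood gene, and 5 of these windows, picked after their values were seen, are printed to show the DNA that the results refer to. Each runs from 250 bases before to 50 after a transcription start in RefSeq (GRCm38.p6, the mm10 assembly), written 5′ to 3′ along the gene. Capitals mark any match, on either strand, to AGATAA, a form of the GATA site, GAGGAA, a form of the PU.1 and ETS site, or CACCTG, an E-box bound by E proteins. Other forms of these sites were not searched. The first 3 windows lie in regions lower in KO and belong to Tal1, a GATA partner in red cell development, Kit, the receptor of stem cell factor, and Aqp1, the water channel of red cells. The last 2 lie in regions higher in KO and belong to Ebf1, the transcription factor that sets up the B lineage, and Bank1, a B cell adaptor.
Tal1, chr4:115056176-115056475, plus strand: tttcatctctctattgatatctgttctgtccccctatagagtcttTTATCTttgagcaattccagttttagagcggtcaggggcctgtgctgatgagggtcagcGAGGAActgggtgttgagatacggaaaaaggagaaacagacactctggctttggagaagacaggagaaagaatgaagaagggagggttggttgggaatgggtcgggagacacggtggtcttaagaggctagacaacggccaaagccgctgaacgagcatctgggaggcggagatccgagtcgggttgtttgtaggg
Kit, chr5:75574737-75575036, plus strand: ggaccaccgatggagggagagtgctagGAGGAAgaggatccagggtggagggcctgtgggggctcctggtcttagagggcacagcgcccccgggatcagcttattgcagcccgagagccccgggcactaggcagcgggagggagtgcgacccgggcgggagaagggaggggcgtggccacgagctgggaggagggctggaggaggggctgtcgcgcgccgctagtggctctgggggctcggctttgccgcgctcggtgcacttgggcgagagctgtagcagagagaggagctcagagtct
Aqp1, chr6:55336049-55336348, plus strand: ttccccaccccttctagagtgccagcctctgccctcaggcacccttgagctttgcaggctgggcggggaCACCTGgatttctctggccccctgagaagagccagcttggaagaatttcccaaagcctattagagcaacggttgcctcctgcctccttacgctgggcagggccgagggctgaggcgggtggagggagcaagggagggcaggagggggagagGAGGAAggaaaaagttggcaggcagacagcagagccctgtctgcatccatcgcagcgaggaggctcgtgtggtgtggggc
Ebf1, chr11:44619978-44620277, plus strand: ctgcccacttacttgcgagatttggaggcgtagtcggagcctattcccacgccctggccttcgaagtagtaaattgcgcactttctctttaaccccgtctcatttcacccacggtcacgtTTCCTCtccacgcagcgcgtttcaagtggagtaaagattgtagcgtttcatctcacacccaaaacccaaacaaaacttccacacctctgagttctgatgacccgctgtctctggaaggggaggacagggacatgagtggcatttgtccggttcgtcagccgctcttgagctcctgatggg
Bank1, chr3:136326017-136326316, minus strand: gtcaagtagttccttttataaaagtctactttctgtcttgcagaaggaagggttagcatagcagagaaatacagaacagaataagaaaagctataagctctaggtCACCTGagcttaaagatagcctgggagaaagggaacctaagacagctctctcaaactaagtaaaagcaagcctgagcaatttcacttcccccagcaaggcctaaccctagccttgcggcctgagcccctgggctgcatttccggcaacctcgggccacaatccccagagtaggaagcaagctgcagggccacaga
The printed Tal1 window holds 1 GATA and 1 ETS match, and the Kit and Ebf1 windows 1 ETS match each. The Aqp1 window holds 1 ETS and 1 E-box match, and the Bank1 window 1 E-box match. Other windows of Tal1 and Ebf1 in the same regions, not printed, hold no match. Windows of Batf, Erg and Mpeg1, also not printed and in regions higher in KO, hold GATA matches. Among all 31396 autosomal promoter windows, 11.2% hold the GATA, 28.2% the ETS and 20.5% the E-box sequence. The GATA sequence is in 7.60% of the 13375 windows inside regions held by every library, in 11.1% of the 496 inside regions lower in KO and in 6.56% of the 503 inside regions higher in KO. For the ETS sequence the same shares are 27.4%, 26.8% and 29.6%. A match is a string of letters and not a measured binding site.

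The first comparison asks which marked regions are present with one genotype and absent with the other. Of 38958 regions held by both WT libraries, 6308 (16.2%) had no island in either KO library, and of 33840 regions held by both KO libraries, 1221 (3.61%) had none in either WT library. These shares depended on the libraries used. Without WT replicate 1 or without KO replicate 2 the lost share was 25.1% or 25.03%. The gained share was 13.2% without WT replicate 2, 6.38% without KO replicate 1 and 7.96% without KO replicate 2. With all lists held to the same number of islands, 11.9% were lost and 7.74% gained. Between single libraries of 1 genotype, islands were also often missing. KO replicate 2 lacked 10.4% of the islands of KO replicate 1, and WT replicate 1 lacked 24.7% of those of the more deeply read WT replicate 2. Across genotypes, KO libraries lacked 23.3% to 35.7% of the islands of a WT library, and WT libraries lacked 7.92% to 19.4% of those of a KO library.

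The share of regions lost was higher for narrow regions than for wide ones, and higher away from gene starts than at them. The share lost was 31.2% of regions under 2 kb, 24.8% at 2 to 4 kb, 13.9% at 4 to 8 kb and 3.84% (356 of 9259) at 8 kb or more, where width is that of the merged WT islands. Gained shares over the same widths were 7.94%, 5.73%, 3.01% and 0.563% (43 of 7632). The shares under 2 kb moved with the lists used. With lists of equal length, 10.4% of 499 such regions were lost and 30.7% of 1818 gained, and the share lost was then highest at 2 to 4 kb, at 18.3%. Without WT replicate 2, gains were 32.2%, 21.99%, 9.96% and 1.85% over these widths, and without KO replicate 2, losses were 47.5%, 37.6%, 21.9% and 6.65%. Gains under 2 kb were 16.1% without WT replicate 1, 14.6% without KO replicate 1, 16.3% without KO replicate 2 and 18.9% among the upper 50% of islands, and losses under 2 kb were 46.8% without WT replicate 1. Where 50% of a region had to be covered, losses were 13.7% at 8 kb or more. At 8 kb or more the share was the lowest of the 4 widths in every setting, for losses and for gains. At 4 to 8 kb, WT replicate 2 lacked 0.420% and WT replicate 1 lacked 10.7% of the other's islands, while KO libraries lacked 10.7% to 23.9% of islands of that width in a WT library. Within 1 kb of a RefSeq gene start, 3.15% of WT regions were lost (95% exact binomial interval 2.85% to 3.46%), against 22.7% (22.2% to 23.2%) of those farther away. The difference held at each width. At 4 to 8 kb it was 2.51% at starts against 19.3% elsewhere, and at 8 kb or more 1.30% against 6.21%. Gains were likewise 0.991% at starts and 5.18% elsewhere. These intervals cover counting error only. Absence also varied with signal, taken as the mean RPM of the genotype that holds the region. Losses were 45.2% at 3 to 6 RPM and 2.22% at 24 or more, and gains 13.7% and 0.354%. The part of signal in the differences by width and position was not tested.

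**Figure D1:**
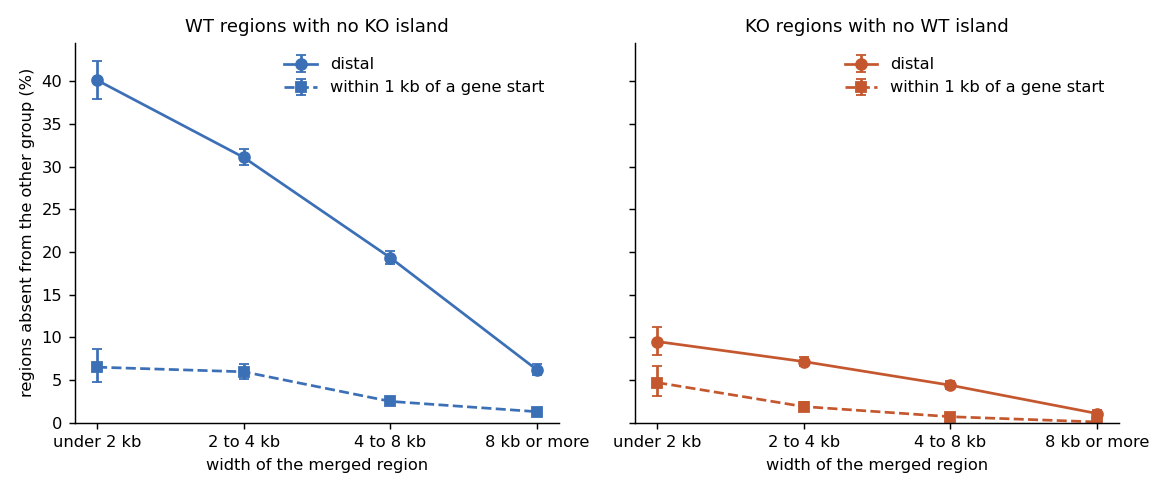
Share of H3K4me1 regions absent from the other genotype (vertical axis, percent) by width of the merged region (horizontal axis), for WT regions without a KO island (left) and KO regions without a WT island (right). Circles are regions farther than 1 kb from a gene start, squares those within 1 kb, and bars are 95% exact binomial intervals; distal WT regions go from 40.2% absent under 2 kb to 6.21% at 8 kb or more.

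The second comparison grades the change where the mark was present in every library. These 26437 kept regions had a median width of 6600 bp, and 43.8% lay within 1 kb of a gene start. Their log2 RPM correlated across regions with r = 0.928 between WT libraries, 0.919 between KO libraries and 0.798 to 0.882 between genotypes, regions not being independent replicates. By edgeR's quasi-likelihood test with Benjamini-Hochberg adjustment over all kept regions (threshold 0.05), 972 (3.68%) were higher and 1041 (3.94%) lower in KO. The balance between directions depended on scaling. Dividing by summed island reads put the median log2 fold change of all kept regions at 0.18, and TMM scaling, which centres most regions, put it at 0.03, with 427 (1.62%) higher and 1399 (5.29%) lower. Log2 fold changes below are on the first scale and are to be read against that median of 0.18. Without WT replicate 1, 48 regions were higher and 96 lower. Without WT replicate 2 the counts were 469 and 398, without KO replicate 1 356 and 846, and without KO replicate 2 1684 and 1570.

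The called regions were wide. Islands differed mostly in length in regions called lower, with a median log2 change of -1.21 in length and -0.14 in reads per kb. In regions called higher both differed, with medians of 0.60 and 0.52. Reads per kb cover only bases inside listed islands. A stretch that falls below the minimum for listing shortens the islands without lowering reads per kb. These measures therefore cannot tell weaker signal from a shorter domain. Median width was 11200 bp for regions higher and 12600 bp for those lower in KO. In regions called lower, the median length under islands was 10 and 12.2 kb in WT and 3.6 and 5.4 kb in KO, and 985 of 1041 had shorter islands in both KO libraries than in either WT library. Reads per kb of island differed less there, with medians of 4.85 and 3.69 RPM per kb in WT and 4.39 and 3.43 in KO, and 256 regions were sparser in both KO libraries than in either WT library. In regions called higher, median length was 4.6 and 7.6 kb in WT and 9.6 and 10.2 kb in KO, longer in both KO libraries in 645 of 972. Density there was 4.33 and 3.12 RPM per kb in WT and 6.05 and 4.64 in KO, denser in both KO libraries in 603. Calls were rare among narrow regions, where width is that of the merged islands of all 4 libraries. Narrow regions have less island length in which to count reads. In WT replicate 1 the median was 1.0 kb under 2 kb and 8.6 kb at 8 kb or more. The part of read number in the calls was not tested. At 8 kb or more 6.55% were higher and 8.14% lower, at 4 to 8 kb 2.44% and 1.73%, and at 2 to 4 kb 0.541% and 0.125%. Of 387 kept regions under 2 kb, 1 was higher and 0 were lower. At 8 kb or more, distal regions were called more often than those at starts, with 7.28% higher and 9.97% lower among 4833 distal regions and 5.91% and 6.55% among 5571 at starts. Under 2 kb calls were too few to compare, with 1 of 129 regions at starts and 0 of 258 distal ones.

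**Figure D2:**
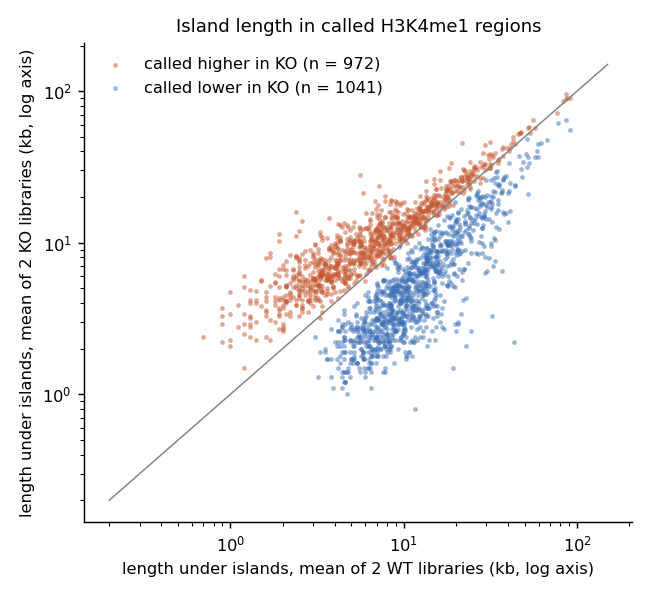
Length under H3K4me1 islands in each called region, as the mean of the 2 WT libraries (horizontal, kb, log axis) and of the 2 KO libraries (vertical, kb, log axis). Each point is 1 region, orange for 972 called higher and blue for 1041 called lower in KO, and the grey line marks equal length; 1040 of 1041 blue points lie below the line and 932 of 972 orange points above it.

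The strongest single regions show the form of these changes. Among called regions with a mean of at least 200 reads, the 3 with the largest rise and the 3 with the largest fall are given. An intronic or exonic position is not stated, since the annotation used gives gene spans only. The region in the span of Cplx2, which encodes a regulator of vesicle fusion (chromosome 13, 54357601 to 54388200), had 7.79 and 20.2 RPM in WT and 118 and 141 in KO. Its log2 fold change was 3.16 (SE 0.33, adjusted p = 0.00068), and both KO libraries lay above both WT libraries. Camk2d, a calcium-dependent kinase gene (chromosome 3, 126802601 to 126815200), had 4.33 and 7.25 RPM against 38.5 and 52.8. The region over Epx, the eosinophil peroxidase gene (chromosome 11, 87862201 to 87886800), had 9.81 and 16.6 RPM in WT and 136 and 57.4 in KO. The KO values there were higher than WT but far apart, with a log2 fold change of 2.84 (SE 0.38).

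On the other side, the region in Spire1, an actin nucleator gene (chromosome 18, 67550801 to 67599600), went from 176 and 159 RPM in WT to 11.9 and 7.88 in KO. Its length under islands went from 38.8 and 48.0 kb to 2.20 kb in each KO library, and its log2 fold change was -4.08 (SE 0.23, adjusted p = 1.8e-05). St6galnac3, a sialyltransferase gene (chromosome 3, 153660201 to 153697200), had 136 and 106 RPM against 6.15 and 11.9 in that region. Foxn3, a forkhead repressor gene (chromosome 12, 99522601 to 99534400), had 51.2 and 37.8 against 4.10 and 3.48. In all 3 the groups were far apart and the remaining KO islands were short stretches of a wide WT domain.

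For the gene-level comparison, reads of all regions nearest to a protein-coding gene were summed, with 0 where a library had no island. Of 14526 genes tested, 9 (0.062%) were higher and 88 (0.606%) lower in KO, and the groups did not overlap in any of these 97. Of the 88, 29 had no island in either KO library, and of the 9, 3 had none in either WT library. A list of islands holds only values above a minimum, so no fold change is given for these. These calls changed when 1 library was left out, which leaves 1 library in a group. When either WT library or the first KO library was left out, 0 genes passed in edgeR. At an unadjusted p under 0.05, 927 were higher and 1007 lower without WT replicate 1, 1719 and 1092 without WT replicate 2, and 839 and 1674 without KO replicate 1. Without KO replicate 2, 161 were higher and 664 lower. With all 4 libraries, 1616 genes (11.1%) were higher and 1935 (13.3%) lower at an unadjusted p under 0.05, and DESeq2's Wald test called 1177 (8.10%) higher and 2256 (15.5%) lower. Both KO libraries lay above both WT libraries in 4930 genes (33.9%) and below them in 3779 (26.0%). Counts within gene lists by these looser rules are to be read against these shares. Counts of regions and values in each library therefore stand beside each gene result below.

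Erythroid genes had the lowest median change between genotypes of the 16 lists. Of 20 listed, 17 were tested, 0 passed as higher and 2 as lower, and for 16 of the 17 both KO libraries lay below both WT libraries, against 26.0% of all genes tested. At an unadjusted p under 0.05, 16 were lower and 0 higher (13.3% and 11.1% of all), and DESeq2 called 15 lower and 0 higher (15.5% and 8.10% of all). The median log2 fold change was -1.79, against 0.09 over all genes tested. Summed over the list, WT libraries carried 2347 and 2396 RPM and KO libraries 962 and 1262. Of its 34 kept regions, 7 (20.6%, against 3.94% of all) were lower and 0 higher, with a median of -0.40. Without WT replicate 1 the lower regions were 3, without WT replicate 2 they were 4, and without either KO library 10. Of 77 regions held by both WT libraries 22 (28.6%) were lost, where regions of the same widths overall would lose 11.8. None of 39 KO regions was gained, where 1.46 would be. Such expected numbers, here and below, are matched on width and not on distance from gene starts or on signal. In each of 15 settings the list's median region lay below that of all regions, by 0.38 to 1.47 on the log2 scale. Other lists also lay below in every setting. The differences were -1.39 to -0.14 for stem cell regulators and -0.36 to -0.12 for stroma and endothelium. They were -0.29 to -0.15 for GATA factors and partners and -0.25 to -0.02 for Polycomb genes.

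Ank1, the ankyrin that ties the red cell membrane to its skeleton (chromosome 8, 22974836 to 23150501), had 237 and 225 RPM in WT and 54.1 and 50.8 in KO. Its log2 fold change was -2.14 (SE 0.14, adjusted p = 0.037), and the groups lay far apart. A domain inside the gene (23026201 to 23063400) held 175 and 161 RPM of this in WT and 20.5 and 25.3 in KO, and it passed as lower. The regions at the gene's ends did not pass. One at 22973801 to 22977200 had 15.9 and 9.71 RPM in WT and 15.1 and 14.8 in KO, and one at 23147601 to 23151800 had 12.99 and 11.3 against 18.5 and 10.7. Sptb, the spectrin chain of the same skeleton (chromosome 12), had 214 and 208 RPM in WT and 50.8 and 67.6 in KO, with a log2 fold change of -1.83 (SE 0.19, adjusted p = 0.0498). Trim10, a gene of terminal red cell differentiation, had 20.8 and 21.0 RPM in WT and no island in KO, at an adjusted p of 0.052.

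Red cell channels and globins were also lower in both KO libraries. At Aqp1, WT libraries had 161 and 123 RPM and KO libraries 7.18 and 37.9. The KO replicates differed widely, so that the single region there passed (log2 fold change -2.64, SE 0.49, adjusted p = 0.010) while the gene did not (adjusted p = 0.13). Slc4a1, the anion exchanger of red cells, had 49.2 and 48.3 RPM in WT, no island in KO replicate 1 and 5.79 RPM in KO replicate 2. The region over Hbb-bt, an adult beta globin gene (chromosome 7, 103806201 to 103816200), had 49.1 and 49.4 RPM against 8.20 and 20.6 and passed as lower. Hbb-bs, its neighbour, had 24.5 and 23.6 RPM and no island in KO. The globin genes are near-identical copies, so reads may be split between them. Tfrc, the transferrin receptor, had 71.2 and 112 RPM in WT and 71.9 and 81.9 in KO, and Epor, the erythropoietin receptor, 35.5 and 31.7 against 19.4 and 23.8, and neither passed.

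Outside the list, other genes with red cell roles were among the 88 lower genes, and these were picked after their values were seen. Add2, an adducin of the membrane skeleton, had 91.1 and 66.5 RPM in WT and no island in KO, and Rhag, a Rh complex channel, 43.7 and 60.7 and none. Ackr1, the Duffy antigen, had 49.2 and 52.0 RPM in WT and none in KO. Pklr, the pyruvate kinase of red cells, had 56.1 and 46.9 RPM against 4.74 and 3.94, and Hemgn, a haematopoietic nuclear protein, 147 and 157 against 51.5 and 55.9. Bpgm, which makes 2,3-bisphosphoglycerate, had 125 and 130 RPM against 45.3 and 49.4. In each of these 6 genes both KO libraries lay clearly below both WT libraries.

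Megakaryocyte genes held 1 of the 88 lower genes. Of 13 tested, 1 was lower and 0 higher in edgeR, 6 were lower and 0 higher at an unadjusted p under 0.05 and by DESeq2, and the median was -0.48. Rab27b, a GTPase of platelet granule release (chromosome 18), passed. It had 79.7 and 98.9 RPM over its WT islands and no island in KO, with 5 regions lost (adjusted p = 0.037). Mmrn1, a platelet adhesion protein, had 20.1 and 21.0 RPM in WT and no island in KO. The region in Vwf, encoding von Willebrand factor (chromosome 6, 125558401 to 125575000), had 70.3 and 64.7 RPM in WT and 20.8 and 23.6 in KO and passed as lower. Other genes of the list showed no such gap. Pf4, a platelet chemokine, had 41.4 and 47.8 RPM in WT and 58.1 and 33.7 in KO, and Itgb3, a platelet integrin, 247 and 254 against 293 and 250. Of 61 WT regions 16 (26.2%) were lost, against 7.13 for the same widths. Of 34 kept regions 1 (2.94%, against 3.68% of all) was higher and 2 (5.88%, against 3.94%) lower. Without KO replicate 2 these counts were 6 and 4, and without WT replicate 1 none was called. The list's summed signal was 1809 and 2005 RPM in WT and 1704 and 1612 in KO.

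Stem cell regulators lost many regions without passing as genes. Of 18 tested, 0 passed in either direction in edgeR. At an unadjusted p under 0.05, 7 were lower and 2 higher, DESeq2 called 8 lower and 2 higher, and the median was -0.45. Of 71 kept regions 7 (9.86%, against 3.94% of all) were lower and 1 (1.41%, against 3.68%) higher, and with TMM scaling 7 and 0. The list's median region minus that of all regions lay between -1.39 and -0.14 on the log2 scale in 15 settings. It was -0.25 without WT replicate 1 and -0.14 without WT replicate 2. Without KO replicate 1 it was -0.25, and without KO replicate 2 it was -0.17. Of 145 WT regions 45 (31.0%) were lost, where their widths would give 22.3, and of 97 KO regions 7 were gained, where widths would give 3.45. Kit (chromosome 5, 75574987 to 75656722) had 480 and 427 RPM in WT and 241 and 234 in KO. The groups did not overlap, but the adjusted p was 0.052 (log2 fold change -0.93, SE 0.12). The domain over its start (75573801 to 75610600) had 182 and 157 RPM against 92.7 and 104 and passed as lower, and one inside the gene (75621001 to 75637800) had 59.3 and 48.0 against 19.998 and 15.4 and also passed. Another, 88678 bp beyond the gene, had 14.4 and 15.0 against 5.38 and 6.26 and passed as well, and 7 regions were lost. A region upstream at 75565801 to 75569600 was gained, with 22.4 and 10.8 RPM in KO.

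Nfia, a transcription factor gene of blood stem cells, had 575 and 652 RPM in WT and 338 and 321 in KO over 43 regions, at an adjusted p of 0.052. Meis1, a homeobox gene of stem cells, had 378 and 396 against 288 and 253 (adjusted p = 0.099). Prdm16, which maintains stem cells, had 157 and 96.7 RPM against 17.2 and 47.7 with wide spread in both groups. Tek, the angiopoietin receptor, had 10.4 and 17.4 RPM in WT and no island in KO. Other members did not follow. Erg, an ETS factor of stem cells, had 462 and 492 RPM in WT and 756 and 610 in KO with 1 region passing as higher, and Satb1, a chromatin organiser, 139 and 153 against 257 and 220. Neither gene passed.

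B cell genes had the highest median change of the 16 lists. Of 20 listed, 17 were tested and 0 passed in edgeR. At an unadjusted p under 0.05, 12 were higher and 0 lower (11.1% and 13.3% of all), DESeq2 called 10 higher and 1 lower (8.10% and 15.5% of all), and the groups did not overlap for 15 higher and 1 lower gene (33.9% and 26.0% of all). The median log2 fold change was 0.90, and the summed signal was 1709 and 1769 RPM in WT and 2236 and 2950 in KO. The KO libraries thus differed more from each other than the WT libraries did. Of 50 kept regions 17 (34.0%, against 3.68% of all) were higher and 2 (4%) lower, and with TMM scaling 14 were higher and 3 lower. These counts changed when 1 library was left out, as did those over all kept regions given above. The list's median region then lay above that of all regions by 0.35 without WT replicate 1 and 0.44 without WT replicate 2. Without KO replicate 1 the difference was 0.44, and without KO replicate 2 it was 0.24. Without WT replicate 1, 1 region was higher and 0 lower, without WT replicate 2 the counts were 6 and 1, without KO replicate 2 they were 10 and 7, and without KO replicate 1 18 and 2. Of 76 KO regions 15 (19.7%) were gained, where widths would give 2.14. In each of 15 settings the list's median region lay above that of all regions, by 0.24 to 0.67. ETS factors (0.06 to 0.19) and T and NK cell genes (0.02 to 0.20) also lay above in every setting. Defining markers differed in whether they carried the mark at all. Cd79a, Vpreb1 and Rag2 had no region nearest to them, and Rag1, a recombinase of antigen receptor genes, had no island in WT replicate 1, 8.87 RPM in WT replicate 2 and 27.4 and 39.9 in KO. Of the 17 tested genes, 16 had an island in each WT library and 17 in each KO library. The part of B lineage cells among these progenitors in the result was not tested.

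Bank1 had 89.5 and 112 RPM in WT and 237 and 194 in KO (log2 fold change 1.10, SE 0.19, adjusted p = 0.076), and 4 of its 5 kept regions passed as higher. At its start (chromosome 3, 136321201 to 136332800) the values were 25.5 and 27.0 RPM against 67.4 and 52.0. Ebf1 had 71.4 and 58.0 RPM in WT and 139 and 312 in KO, with 2 regions higher and 4 gained. The region over its start (chromosome 11, 44610801 to 44625800) had 29.4 and 26.7 RPM against 48.3 and 63.0 and passed (log2 fold change 0.99, SE 0.23, adjusted p = 0.024). Blk, a kinase of B cell receptor signalling, had 36.8 and 27.9 RPM against 69.5 and 91.5, and Cd79b, a chain of that receptor, 64.2 and 50.0 against 96.9 and 119. In all 4 genes KO libraries lay above WT libraries, and KO replicate 2 was the highest in 3 of them. The 3 regions at Pou2af1, a B cell coactivator, that were gained carried 13.3 to 15.5 RPM in KO replicate 1 and 11.4 to 21.2 in KO replicate 2. Bach2, a repressor of plasma cell fate, had 681 and 720 RPM against 549 and 635, with 2 of its 12 kept regions lower and 1 higher.

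Olfr164 was called higher, with no WT island and 32.2 and 50.2 RPM in KO. Its 4 regions lie on chromosome 16 from 19171801 to 19247200, a stretch that holds 4 immunoglobulin lambda segments, and 2 of the regions, 1 of them gained, lie between these antigen receptor segments. Segments were not among the genes tested.

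Among ETS factors, signal was higher at Ets1 and Spi1 and lower at Ehf. Of 14 tested, 0 passed in edgeR, with 4 higher and 1 lower both at an unadjusted p under 0.05 and by DESeq2, and a median of 0.23. Of 47 kept regions 7 (14.9%, against 3.68% of all) were higher and 2 (4.26%, against 3.94%) lower, and with TMM scaling 3 and 3. None was called without WT replicate 1, 3 were higher and 0 lower without WT replicate 2, 3 and 3 without KO replicate 1, and 8 and 1 without KO replicate 2. Ets1 (chromosome 9) had 303 and 351 RPM in WT and 685 and 584 in KO (log2 fold change 0.95, SE 0.14, adjusted p = 0.063), and 5 of its 9 kept regions passed as higher. The widest, at 32691401 to 32733000, had 97.1 and 116 RPM against 259 and 213. Spi1, encoding PU.1, lies in 1 region (chromosome 2, 91065801 to 91116600), with 261 and 244 RPM in WT and 409 and 357 in KO. It passed as a region (log2 fold change 0.60, SE 0.13, adjusted p = 0.020) and not as a gene (adjusted p = 0.087). Ets2 had 112 and 125 RPM against 197 and 180, and 3 gained regions. Fli1, an ETS factor of stem cells and megakaryocytes, had 584 and 599 against 787 and 727, with 1 of 3 kept regions higher. Ehf, an epithelial ETS factor, had 72.9 and 124 RPM in WT and 18.3 and 34.0 in KO.

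Regions of GATA factors and their partners were called in both directions. Of 12 tested, 0 passed in edgeR, 2 were higher and 3 lower at an unadjusted p under 0.05, DESeq2 called 2 higher and 5 lower, and the median was -0.16. Of 38 kept regions 2 (5.26%, against 3.68% of all) were higher and 3 (7.89%, against 3.94%) lower, and nothing is read from counts this small. With TMM scaling the counts were 0 and 3, against 1.62% and 5.29% of all. None was called without WT replicate 1, and 3 were lower in each of the other leave-outs, with 0 higher without WT replicate 2, 1 without KO replicate 1 and 3 without KO replicate 2. The lower ones were single domains over or near 3 of the 12 genes. That over Zfpm1, the GATA1 partner FOG1 (chromosome 8, 122282401 to 122334000), had 629 and 490 RPM in WT and 328 and 283 in KO. That over Tal1 (chromosome 4, 115045001 to 115077200) had 129 and 121 against 64.4 and 80.1. The last one lies 55403 bp from Lmo2, a bridging subunit, with 159 and 173 RPM against 58.2 and 93.5, while the domain over Lmo2 itself had 164 and 174 against 156 and 142. Zfpm2, a FOG paralogue known from heart, had 19.9 and 16.6 RPM in WT and 84.7 and 63.4 in KO with 3 gained regions (adjusted p = 0.052). Lyl1, a relative of Tal1, had 97.0 and 93.0 RPM against 139 and 147, and its region passed as higher. Gata2 had 182 and 144 RPM against 117 and 126 and did not pass.

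**Figure D3:**
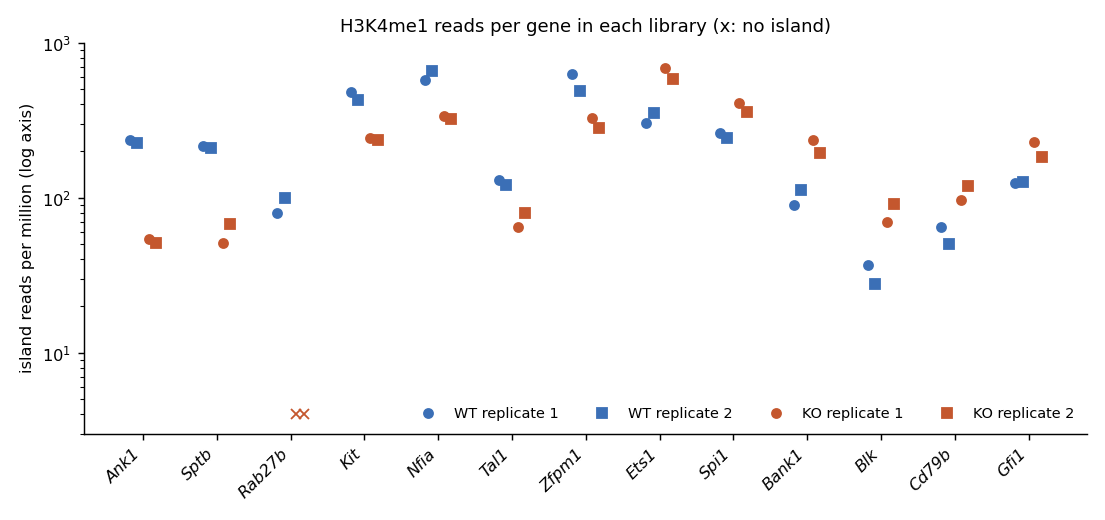
H3K4me1 island RPM (vertical, log axis) of regions nearest to 13 genes in each library. Circles are replicate 1 and squares replicate 2, blue WT and orange KO, and a cross at the foot of the plot marks no island; Ank1, Sptb, Kit and Tal1 are lower and Ets1, Spi1 and the B cell genes higher in both KO libraries.

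Myeloid genes differed little as groups. None of 16 neutrophil genes passed in edgeR, with 4 higher and 0 lower at an unadjusted p under 0.05 and by DESeq2, and a median of 0.31. Gfi1, a repressor of granulocyte development, had 124 and 126 RPM in WT and 229 and 183 in KO, and the region over its starts passed as higher. Itgam, encoding CD11b, had 174 and 194 against 282 and 272. S100a8, a granule protein gene, had 35.1 and 34.2 RPM against 60.4 and 49.1. Among 20 monocyte and macrophage genes 0 passed, with 4 higher and 0 lower at an unadjusted p under 0.05 and 4 higher and 1 lower by DESeq2. Of their 93 kept regions, 4 (4.30%, against 3.68% of all) were higher and 0 lower (3.94% of all), and with TMM scaling 0 and 1. None was called without WT replicate 1, and 1 was higher and 0 lower without WT replicate 2. Adgre1, encoding F4/80, had 32.6 and 39.9 RPM in WT and 84.3 and 62.6 in KO, Mpeg1, a perforin of macrophages, 52.5 and 55.0 against 89.9 and 80.9, and Ly86, whose product pairs with a Toll-like receptor homologue, 590 and 601 against 700 and 767. Csf1r, the macrophage growth factor receptor, had 106 and 118 RPM against 80.1 and 104.

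Mast cell, lymphoid and stromal lists gave no gene past the threshold in edgeR. With 13 or 14 genes tested in each, their counts by the looser rules lay within a few genes of what the shares of all genes would give, and nothing is read from them. Of 14 mast cell and basophil genes, 1 was higher and 2 lower at an unadjusted p under 0.05 and by DESeq2, and the list's kept regions held no call. Fcer1a, the IgE receptor chain, had no WT island and 20.9 and 9.27 RPM in KO, Hpgds, a prostaglandin synthase, had 25.7 and 27.9 against 8.85 and 10.7, and Cyp11a1 had 34.5 and 33.4 against 24.2 and 15.5. Of 13 T and NK cell genes, 1 was higher and 2 lower at an unadjusted p under 0.05, and DESeq2 called 1 and 1. Zap70, a T cell kinase, had 20.5 and 17.2 RPM against 34.4 and 49.1, Cd247 had 102 and 86.3 against 47.2 and 64.9, and Klrd1 had 3.90 and 5.91 in WT and no island in KO. Of 13 stromal and endothelial genes 1 was higher and 2 lower at an unadjusted p under 0.05, and DESeq2 called 0 higher and 4 lower. Vcam1, an adhesion molecule of stroma and macrophages, had 24.2 and 73.9 RPM in WT and 225 and 128 in KO, Kdr had 284 and 275 against 215 and 192, and Pdgfra 128 and 144 against 98.2 and 106.

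Chromatin regulators and widely expressed genes gave 0 gene calls in edgeR as well, and nothing is read from their counts by the looser rules, which likewise lay within a few genes of the shares of all genes. Of 16 genes of the H3K4 methylation machinery, 3 were higher and 2 lower at an unadjusted p under 0.05, DESeq2 called 3 and 3, and none of 26 kept regions passed. Kmt2d had 68.1 and 69.4 RPM in WT and 75.9 and 80.0 in KO, Kdm1a, a demethylase of this mark, 93.4 and 84.4 against 59.1 and 56.3, Kdm5b 113 and 113 against 77.7 and 72.4, and Paxip1, a subunit of the Kmt2c and Kmt2d complexes, 17.6 and 17.9 against 47.7 and 30.01. Of 17 Polycomb genes 3 were higher and 3 lower at an unadjusted p under 0.05, and DESeq2 called 1 higher and 3 lower. Rybp, a subunit of Polycomb complex 1, had 481 and 469 RPM in WT and 153 and 264 in KO and lost 12 of its 36 regions, at an adjusted p of 0.098. Ezh1 had 71.6 and 73.7 RPM against 42.0 and 49.6, and Cbx2 22.9 and 17.6 against 33.6 and 34.1. Of 10 AP-1 genes 1 was higher and 0 lower at an unadjusted p under 0.05 and by DESeq2, and none of 43 WT regions was lost, where widths would give 5.34. Fosl2 had 122 and 104 RPM against 154 and 155, Fos 253 and 271 against 307 and 326, and Fosb 122 and 116 against 139 and 142. Of 23 Hox genes 1 was higher and 1 lower at an unadjusted p under 0.05, with Hoxc8 at 6.35 and 4.85 RPM in WT and no island in KO, Hoxa11 at 25.7 and 23.0 against 33.5 and 43.9, and Hoxd8 at 13.4 and 10.3 against 19.5 and 19.0. DESeq2 called 0 of them higher and 1 lower. Of 8 housekeeping genes 0 passed at an unadjusted p under 0.05 and 1 was lower by DESeq2, with Sdha at 18.3 and 26.2 RPM against 39.5 and 31.9 and Ywhaz at 457 and 443 against 369 and 410.

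**Figure D4:**
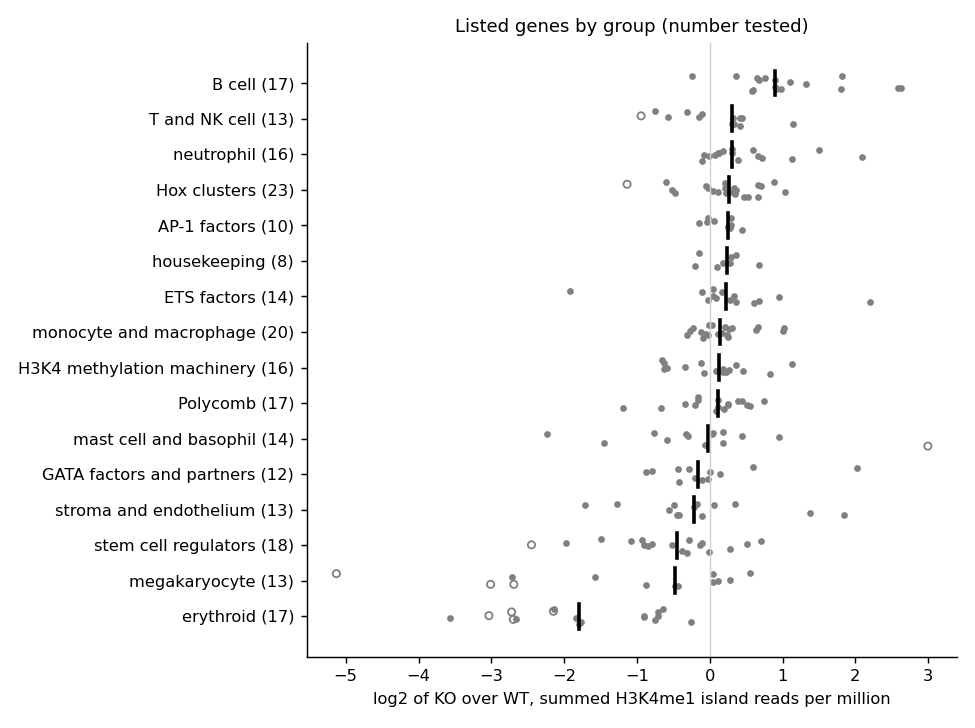
Log2 ratio of KO to WT mean island RPM (horizontal) for each tested gene, by gene list (vertical, number tested in brackets). Bars are list medians and open circles genes without an island in either library of 1 genotype, placed with the smallest island of each library in place of the missing value; medians run from -1.79 for erythroid to 0.90 for B cell genes.

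The largest falls among called genes with an island in every library and at least 3 regions were at genes of no common list. Slc14a2, a urea transporter gene (chromosome 18), had 129 and 114 RPM in WT and 5.00 and 3.94 in KO. Its log2 fold change was -4.76 (SE 0.24, adjusted p = 0.037), with 9 of 13 regions lost and 1 short region kept at 5.77 and 5.14 against 5.00 and 3.94 RPM. Unc5cl had 77.1 and 57.9 RPM against 5.90 and 5.79, Gm8439 82.1 and 74.0 against 7.69 and 7.30, and Cmbl 75.2 and 63.7 against 5.77 and 9.85. Nipa1, a magnesium transporter gene, had 72.5 and 85.7 RPM against 8.59 and 10.5. Pkhd1l1 had 35.8 and 46.2 against 6.54 and 4.52, and Garem1, an adaptor of growth factor signalling, 116 and 151 against 17.6 and 18.8. Each of these 7 genes had 1 kept region, which passed as lower in Unc5cl, Cmbl, Nipa1 and Pkhd1l1. Pkhd1l1 lost no region, and the others lost 2 to 9.

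Rises under the same conditions were fewer. Myrfl had 6.35 and 10.7 RPM in WT and 65.6 and 79.5 in KO (log2 fold change 3.06, SE 0.33, adjusted p = 0.0498). A gained region at 116734001 to 116748600 on chromosome 10 carried 28.8 and 48.7 RPM of this. Esrrb, an orphan nuclear receptor gene, had 5.20 and 4.08 RPM against 29.4 and 35.1, and Ttc32 7.07 and 8.44 against 37.0 and 46.8. Wdr66 had 46.8 and 45.5 RPM against 133 and 168, and Tmem108 86.2 and 87.9 against 228 and 291 with 4 of 5 kept regions higher. In each of these 5 genes, KO replicate 2 was the highest library.

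Genes with the most called regions, picked after their values were seen, did not themselves pass. Cxcr4, the receptor that holds progenitors in marrow, had 571 and 640 RPM in WT and 1096 and 959 in KO (log2 fold change 0.76, SE 0.11, adjusted p = 0.063), with 6 of 15 kept regions higher. Prkcb, a protein kinase C gene of B cells and myeloid cells, had 316 and 363 RPM against 882 and 597, with 5 of 7 higher. Nol4l had 707 and 537 RPM against 229 and 315, with 6 of 7 lower and 4 more regions lost. In all, 823 genes had a region called higher and 886 one called lower, 40 had both, and 24 and 21 genes had 3 or more in 1 direction.

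PU.1 binding and open chromatin were then read at the same regions, in other libraries. PU.1 islands came from 3 UTX WT and 3 UTX KO libraries of Lin- progenitors, and ATAC-seq peaks, which mark open chromatin, from 2 UTX_WT and 2 UTX_KO libraries of Cas9 progenitors with an empty vector. Gained regions had 883, 998 and 951 PU.1 RPM per Mb in WT and 1464, 1608 and 1659 in KO. The groups did not overlap, and the ratio of means was 1.67 (two-sided exact permutation p = 0.1, the smallest that 3 against 3 allows; 0.125 adjusted over 5 region sets). Lost regions had 1059, 1024 and 951 in WT and 798, 757 and 748 in KO, a ratio of 0.76 with the same p. Kept regions had 2579 ± 75.01 in WT and 2533 ± 30.3 in KO (SD, n = 3, exact permutation p = 0.4). Within the kept set, regions called lower had a ratio of 0.86 and those called higher 1.14, again with no overlap between genotypes and an exact permutation p of 0.1. Gained regions held a PU.1 island in 53.8% to 60.3% of cases in WT libraries and 72.7% to 77.4% in KO libraries. For lost regions the ranges overlapped, 54.1% to 56.6% in WT and 46.9% to 55.9% in KO.

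ATAC peaks were less frequent in KO at every class, gained regions included. Lost regions held a peak in 21.6% and 21.3% of cases in WT and 15.6% and 15.9% in KO. Kept regions did in 69.2% and 68.7% against 62.9% and 63.1%, and gained regions in 14.6% and 15.0% against 12.7% and 11.9%. In percentage points the largest difference was at kept regions called lower, 76.6% and 75.4% against 66.6% and 67.2%. Those called higher had 64.9% and 63.5% against 57.7% and 58.5%. Relative to the WT share, the fall was largest at lost regions. The groups did not overlap in any class, and 2 against 2 libraries cannot give an exact permutation p below 0.3333. The ATAC lists carry no counts and their depth is unknown. They held 50845 and 50927 peaks in WT and 40477 and 41024 in KO, and the part of list length in these shares was not tested. At matched width, lost and gained regions held ATAC peaks less often than kept ones, but position and signal were not matched. Within 1 kb of a gene start lay 43.8% of kept, 6.50% of lost and 10.4% of gained regions. The part of position and signal in these shares was not tested. At 4 to 8 kb both WT libraries had a peak in 19.9% of lost, 10.4% of gained and 61.1% of kept regions, and all WT PU.1 libraries had an island in 47.6%, 43.5% and 87.1%. Under 2 kb the ATAC shares were 15.7%, 15.5% and 34.4%, but the order of the PU.1 shares was the opposite, with 55.3% of lost, 57.4% of gained and 30.2% of kept regions.

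**Figure D5:**
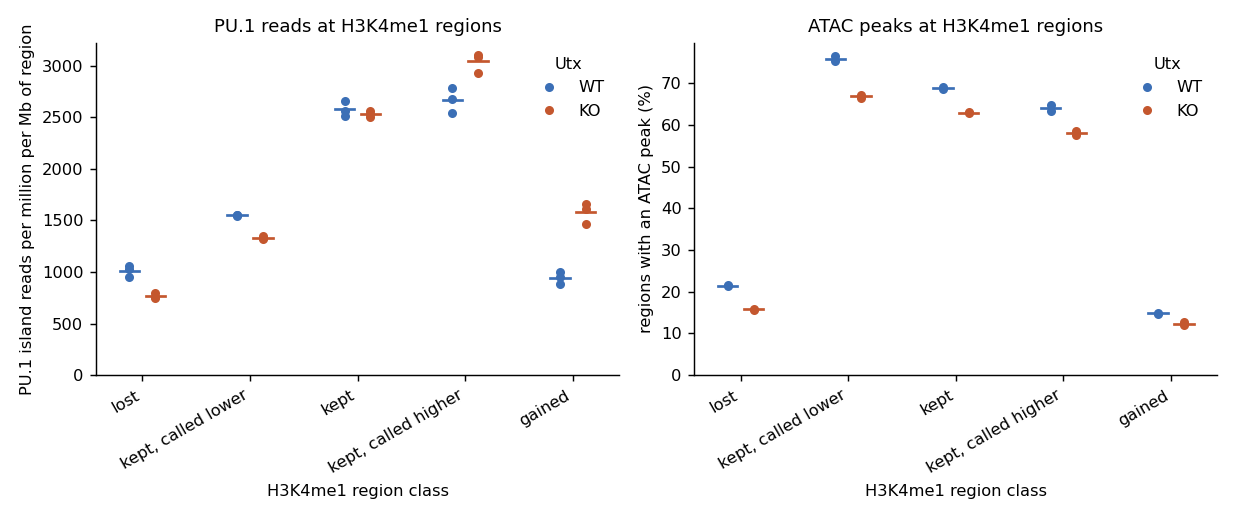
PU.1 island RPM per Mb of region (left) and share of regions with an ATAC peak in percent (right) for 5 classes of H3K4me1 regions. Each point is 1 library, blue WT and orange KO, and bars are group means; PU.1 is higher in KO at gained and lower at lost regions, and ATAC shares are lower in KO in every class.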

How the data were processed

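H3K4me1 ChIP-seq was read from island lists of 2 WT and 2 KO libraries, and PU.1 ChIP-seq and ATAC-seq from the lists of 6 and 4 more. Bowtie2, Bowtie, SICER, MACS2 and mm10 are named in the submitters' processing notes, without roles or versions. The deposited ChIP-seq lists give each island's position and a whole-number count, taken from its values as the reads in the island. The deposited ATAC lists give positions and other peak values, of which only positions were used. Islands below the authors' unstated minimum are not listed. Input samples were not used here.

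Islands were merged where they overlapped or touched. Reads were summed per region and per nearest protein-coding gene (GRCm38.p6, the assembly of mm10), and divided by the library's summed island reads, 6928701 to 14212793 in number. Counts of regions with an island in every library, and of genes with an island in at least 2 libraries and a mean of at least 20 reads, were tested with edgeR 4.0.16 (quasi-likelihood, Benjamini-Hochberg threshold 0.05, R 4.3.3). DESeq2 1.42.0 was an alternative. The scripts were tested on simulated data. Expected numbers lost or gained use the shares over all regions of the same 4 width classes, without matching on position or signal.

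Genes named are the up to 8 largest rises and falls among called genes with an island in every library and at least 3 regions, the 3 tested members of lowest p from each of 16 lists, and the 3 largest rises and falls among called regions with a mean of at least 200 reads. Others were chosen after their values were seen. The members and lists were chosen with earlier results of these data known. Of 290 listed genes 241 were tested, 35 had no nearest region, 8 were not on an autosome, 5 had too few reads or islands and 1 was unmatched. Some genes that the rule names are not reported here.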

Additional observations from a re-analysis of the deposited data

How the results depend on the processing

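Counts of calls moved most. For genes (9 higher, 88 lower), TMM gave 21 and 227, DESeq2 size factors 25 and 275, DESeq2's Wald test 1177 and 2256, a width offset 58 and 304, and no filter 31 and 196. The upper 50% of islands and lists of equal length gave 0 and 0 (564 and 990, and 1694 and 1751, at an unadjusted p under 0.05). Leaving out 1 library gave 0 to 161 higher and 0 to 664 lower. All 97 calls remained under both scalings, the Wald test, the width offset and no filter. For regions (972 higher, 1041 lower), TMM gave 427 higher, DESeq2 size factors 404, and the width offset 613, and the Wald test 1843 lower. Admitting regions without an island in every library gave 0 and 0 in edgeR, both with no filter (4304 and 7651 at an unadjusted p under 0.05) and with an island in 2 or more libraries (4340 and 8260). The upper 50% of islands gave 26 and 93. Leaving out 1 library gave 48 to 1684 higher and 96 to 1570 lower. The cause of these differences was not tested.

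WT regions lost (16.2%) came to 21.4% with a minimum cover of 50%, 11.9% at equal length, 17.0% in the upper 50% of islands and 18.5% to 25.1% with 1 library left out. KO regions gained (3.61%) came to 6.01%, 7.74%, 6.33% and 4.61% to 13.2%. With replicate number as a block, 0 genes passed in either direction (1190 higher and 1527 lower at an unadjusted p under 0.05), and 1672 regions were higher and 1442 lower. The labels do not say whether the numbers pair the samples. Over kept regions, the difference between replicates 1 and 2 in WT correlated with that in KO at r = -0.0549. That value does not settle pairing. Of 913 alternative values for 67 named genes, 709 kept direction and side of the threshold, 130 lost and 69 gained a call, and 5 reversed. These were Pdgfra with regions within 50 kb (0.81) and, in the upper 50% of islands, Cbx2 (-0.28), Cyp11a1 (0.31), Kdm5b (0.61) and Paxip1 (-0.35). Of 67 for the 6 named regions, 55 kept and 12 lost their call and none reversed. PU.1 and ATAC differences at lost, gained and kept regions kept their direction with any 1 library left out. With 2 libraries a group, small differences and narrow islands near the detection minimum were not resolved.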
